A study of Mus musculus with 6 samples.

Results

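Eosinophils, basophils and mast cells are granule-bearing leukocytes of type 2 immunity, which mature in or descend from the bone marrow. Eosinophil granules hold cationic proteins, a peroxidase and ribonucleases. Basophils and mast cells carry the high-affinity receptor for IgE, store histamine and release proteases, and mast cells depend on the KIT receptor and its ligand, stem cell factor. The 10 genes described here were *Prg2*, *Prg3*, *Epx* and *Ear2* of the eosinophil granule, *Kit*, the granule proteases *Cpa3* and *Mcpt8*, the IgE receptor chains *Fcer1a* and *Ms4a2*, and *Hdc*, the histamine-forming enzyme. They were found by symbol in a table of 56980 mouse genes, where each symbol matched 1 gene, and all 10 passed the filter on low counts that left 15190 genes. *Prg3* passed it through the TranspExer samples, since its highest TranspCtrl count was 8. These genes were picked with their values in the comparison below already known, so their levels and fold changes are descriptions, without p-values.

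RNA-Seq was performed on BM MSCs (bone marrow mesenchymal stromal cells, grown attached to plastic) from female mice whose ovaries were removed (OVX) at age 8 weeks. All recipients had their own gut microbiota depleted with antibiotics and then received FMT (fecal microbiota transplantation) for 8 weeks. The donors were osteoporotic OVX mice, either sedentary (TranspCtrl group, 3 samples) or exercised (TranspExer group, 3 samples). The strain was not given in the sources used here. The comparison asked how the transcriptome of recipient MSCs differed with the exercise state of the fecal donor. The cells came from flushed marrow cultured for 7 days with repeated washes and no sorting step described, so other marrow cells could remain. The labels do not say that samples of a group came from separate mice or cultures, and the p-values of the gene lists then measure only the spread between these samples, which may be technical.

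Total counts were 17647682 to 21319228 per sample, and 3 counts equalled 0.139 to 0.174 CPM (counts relative to library size, scaled with TMM factors), a floor that covers counting error only. TranspCtrl replicate 1 stood apart from the other TranspCtrl samples on the second principal component, with 29.7 against -22.7 and -19. It also differed from them in some cell type markers. The 10 stromal markers summed to 12000 CPM in TranspCtrl replicate 1 and to 19700 and 19000 CPM in replicates 2 and 3. In TranspExer they summed to 12800 to 14100 CPM. Most of this sum was *Col1a1* and *Col1a2*, with 4560, 9940 and 9600 CPM and 5120, 7340 and 7020 CPM in TranspCtrl replicates 1, 2 and 3. *Pdgfra* (108, 116 and 112 CPM) and *Cxcl12* (1320, 1440 and 1420 CPM) differed little between these replicates. *Ly6a* was highest in replicate 1 (434, 315 and 347 CPM). The mean of *Col1a1* was 8030 CPM in TranspCtrl and 7210 CPM in TranspExer. The cultures also held transcripts of macrophages, with 8 markers summing to 13200 CPM in TranspCtrl replicate 1 and to 8360 and 8640 CPM in replicates 2 and 3. In TranspExer they summed to 6400 to 7040 CPM. *Lyz2* was the largest part of this sum, with 9090, 4890 and 5230 CPM in TranspCtrl and 3230, 2890 and 2590 CPM in TranspExer. Of the 8 markers, 3 were higher and 5 lower on average in TranspExer, with a median log2 fold change of -0.1. In such bulk samples, a change in the number of cells of a type and a change in RNA per cell cannot be told apart.

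The promoters of 5 genes are shown, the 4 that held the letters marked below and, as one that did not, that of *Epx*. Each is the 250 bases before the transcription start, 5′ to 3′ on the gene's strand, from RefSeq on GRCm38.p6, whose table held 9 of the 10 genes. Capitals mark AGATAA or TGATAA on either strand, letters that GATA transcription factors can bind.
*Prg3* (chr2:84987965-84988214, plus strand): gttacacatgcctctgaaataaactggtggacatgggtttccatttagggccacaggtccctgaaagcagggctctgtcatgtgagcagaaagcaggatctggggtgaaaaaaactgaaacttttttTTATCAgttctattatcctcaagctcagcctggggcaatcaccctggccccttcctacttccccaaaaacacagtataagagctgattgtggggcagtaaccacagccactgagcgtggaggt
*Epx* (chr11:87875537-87875786, minus strand): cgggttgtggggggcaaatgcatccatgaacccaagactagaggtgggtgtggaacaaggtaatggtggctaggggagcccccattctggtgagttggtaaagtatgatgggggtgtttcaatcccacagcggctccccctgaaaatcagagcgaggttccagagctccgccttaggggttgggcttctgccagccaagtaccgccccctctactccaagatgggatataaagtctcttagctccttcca
*Cpa3* (chr3:20242182-20242431, minus strand): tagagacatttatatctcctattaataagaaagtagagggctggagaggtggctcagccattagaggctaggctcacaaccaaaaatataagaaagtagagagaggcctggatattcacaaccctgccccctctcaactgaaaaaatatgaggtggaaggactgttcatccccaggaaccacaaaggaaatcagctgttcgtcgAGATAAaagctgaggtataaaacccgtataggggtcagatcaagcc
*Fcer1a* (chr1:173227230-173227479, minus strand): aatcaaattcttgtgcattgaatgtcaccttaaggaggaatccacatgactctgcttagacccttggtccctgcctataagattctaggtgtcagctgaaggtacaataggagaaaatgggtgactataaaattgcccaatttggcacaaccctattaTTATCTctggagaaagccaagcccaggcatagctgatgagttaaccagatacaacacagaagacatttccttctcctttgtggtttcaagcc
*Ms4a2* (chr19:11623720-11623969, minus strand): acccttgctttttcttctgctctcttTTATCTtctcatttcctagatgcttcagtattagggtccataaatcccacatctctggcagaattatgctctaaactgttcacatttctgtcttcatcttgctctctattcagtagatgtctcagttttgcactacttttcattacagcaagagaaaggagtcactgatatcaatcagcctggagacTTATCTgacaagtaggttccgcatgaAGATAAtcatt

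*Ms4a2* held 3 such matches, beginning 224, 37 and 11 bases before the start, and *Prg3*, *Cpa3* and *Fcer1a* held 1 each, beginning 123, 46 and 92 bases before it. The other 5 genes in the table, *Epx* among them, held none in this window. Of all 32851 promoter windows of this length, 16.6% held at least 1 match. The letters GAGGAA, which the myeloid factor PU.1 can bind, stood in the windows of *Fcer1a*, *Kit* and *Mcpt8* and in 23.3% of all windows. The letters TTGCNNAA of C/EBP factors stood in those of *Ear2* and *Fcer1a* and in 9.56% of all windows. A match describes the letters alone, and binding was not measured.

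All 10 genes had a higher mean in the TranspExer group, and for 9 of them every TranspExer sample was above every TranspCtrl sample. Among all tested genes, 27.2% showed that separation upward. DEGs were genes that passed an adjusted p-value of 0.05 in edgeR's quasi-likelihood test over all tested genes and changed at least 2-fold. Of the 10 genes, 6 were upregulated DEGs and the other 4 were no DEGs. Among all tested genes, 3.5% were upregulated DEGs and 5.28% downregulated ones, 8.78% in either direction. Since the genes were chosen on this contrast, nothing is read from the difference. Their median log2 fold change was 1.02, against -0.0179 for all tested genes. *Ear2* and *Ms4a2* lay just inside the fold threshold with log2 fold changes of 1.02 and 1.01, and *Cpa3* lay just outside it with 0.95.

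**Figure D1:**
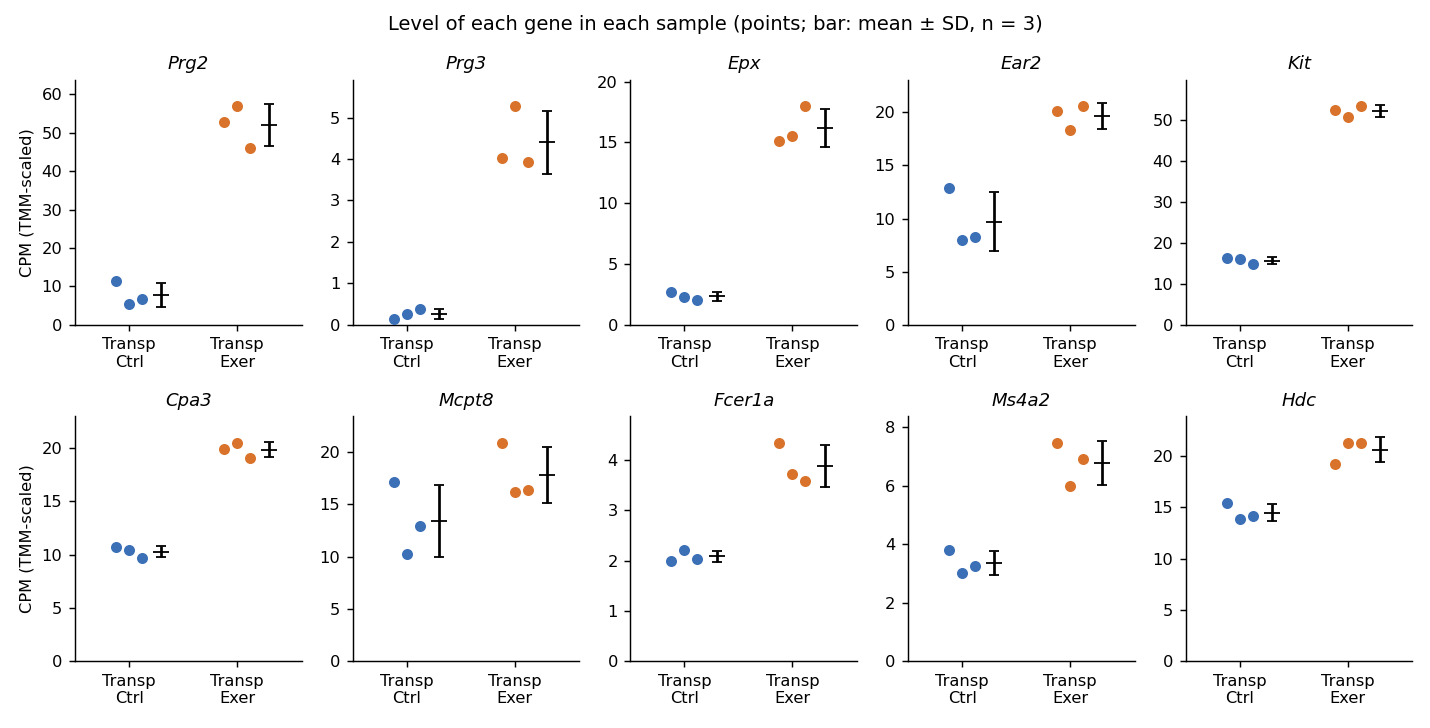
TMM-scaled CPM of the 10 genes in each of the 3 TranspCtrl and 3 TranspExer samples (points), with the mean ± SD (bars); each panel has its own linear axis from 0. The groups are apart in every panel but that of *Mcpt8*, where TranspCtrl replicate 1, at 17.1 CPM, lies above 2 of the TranspExer samples.

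The largest differences were in the eosinophil granule genes. *Prg2* (ENSMUSG00000027073, chr2:84980461-84983632) encodes major basic protein, the cationic protein of the granule's crystalline core. It had 11.3, 5.33 and 6.64 CPM in TranspCtrl replicates 1, 2 and 3, and 52.8, 57.0 and 46.1 CPM in TranspExer replicates 1, 2 and 3. The lowest TranspExer sample was 4.1 times the highest TranspCtrl sample, which was replicate 1. The group means were 7.75 ± 3.12 CPM (SD, n = 3) and 52.0 ± 5.45 CPM (SD, n = 3). The log2 fold change was 2.74 ± 0.24 (SE), and it was 3.11 without TranspCtrl replicate 1.

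*Prg3* (ENSMUSG00000027072, chr2:84988215-84993886) encodes a second major basic protein and lies 4582 bases from *Prg2* on the same strand. It had 3, 5 and 8 counts in the TranspCtrl samples and 77, 91 and 79 counts in the TranspExer samples. TranspCtrl was thus near the floor of 3 counts, and the TranspExer samples were all well above it. Over the summed counts of each group, 16 and 247, TranspExer was 16.8 times higher after scaling for library size. The fitted log2 fold change was 4.05 ± 0.32 (SE), and leaving out single samples moved it between 3.77 and 4.41. *Prg2* and *Prg3* shared none of their 50-base transcript sequences with another gene in the GENCODE M21 annotation. The count ratio of *Prg2* to *Prg3* was 77, 20.8 and 17.9 in the TranspCtrl samples and 13.1, 10.8 and 11.8 in the TranspExer samples, and no order is read from it because the TranspCtrl ratios divide by 3, 5 and 8 counts.

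*Epx* (ENSMUSG00000052234, chr11:87864000-87875536), the eosinophil peroxidase, had 2.73, 2.26 and 2 CPM in the TranspCtrl samples and 15.1, 15.5 and 18.0 CPM in the TranspExer samples. The lowest TranspExer sample was 5.53 times the highest TranspCtrl sample. Its log2 fold change of 2.80 ± 0.16 (SE) was within the error of that of *Prg2*, and among the 10 genes its profile over the 6 samples was nearest to that of *Prg2*.

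*Ear2* (ENSMUSG00000072596, chr14:44102654-44103534) encodes an eosinophil-associated ribonuclease, and it differed less than the other granule genes. It had 12.9, 7.95 and 8.22 CPM in the TranspCtrl samples and 20.1, 18.3 and 20.6 CPM in the TranspExer samples. TranspCtrl replicate 1 was again the highest of its group, and the groups did not overlap. The log2 fold change was 1.02 ± 0.19 (SE), and it was 1.28 without that replicate. It was no longer past the fold threshold without TranspCtrl replicate 2 or 3 or without TranspExer replicate 1 or 3, the lowest value being 0.90. The gene belongs to a family of near-copies, and 41.5% of its 50-base sequences were also in transcripts of *Ear10*, *Ear1*, *Ear6* or pseudogenes. It was the only one of the 10 genes with values that were not whole numbers, in 3 samples, so its counts depend on how shared reads were assigned. *Ear1* had 36, 19 and 24 counts in TranspCtrl against 141, 129 and 140 in TranspExer, and *Ear6* had 20, 12 and 17 against 90, 80 and 100. *Ear10* and *Ear14* had no counts. With the 3 tested family members summed, the log2 fold change was 1.43 ± 0.18 (SE).

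*Kit* (ENSMUSG00000005672, chr5:75574916-75656722) encodes the receptor for stem cell factor, carried by mast cells and also by stem and progenitor cells. It had 16.3, 16 and 14.7 CPM in the TranspCtrl samples and 52.4, 50.7 and 53.4 CPM in the TranspExer samples. Samples of a group lay close together, with coefficients of variation of 5.31% and 2.57%. The log2 fold change was 1.74 ± 0.08 (SE), the smallest standard error among the 10 genes. *Kitl*, the gene of its ligand, had a log2 fold change of 0.02 ± 0.09 (SE, edgeR adjusted p = 0.913). On the scale of TPM (transcript abundance per gene length, from the counts and the deposited gene lengths), the level of *Kit* was 0.175 to 0.223 times that of *Kitl* in the TranspCtrl samples and 0.61 to 0.652 times in the TranspExer samples.

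The proteases of mast cell and basophil granules among the 10 genes differed less. *Cpa3* (ENSMUSG00000001865, chr3:20215620-20242181), the mast cell carboxypeptidase, had 10.7, 10.4 and 9.71 CPM in the TranspCtrl samples and 19.9, 20.5 and 19.1 CPM in the TranspExer samples. The groups were well apart relative to their SDs of 0.523 and 0.696 CPM, with a log2 fold change of 0.95 ± 0.10 (SE). *Mcpt8* (ENSMUSG00000022157, chr14:56082166-56085273), a serine protease that marks mouse basophils, had 17.1, 10.3 and 12.9 CPM in the TranspCtrl samples and 20.9, 16.2 and 16.4 CPM in the TranspExer samples. It was the gene whose groups overlapped. Its log2 fold change of 0.41 ± 0.19 (SE) was 0.62 without TranspCtrl replicate 1 and 0.25 without TranspCtrl replicate 2.

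The IgE receptor is built from an alpha chain that binds IgE, a beta chain that amplifies the signal and gamma chains that transmit it. *Fcer1a* (ENSMUSG00000005339, chr1:173221284-173227214), the alpha chain, had 2, 2.21 and 2.04 CPM in the TranspCtrl samples and 4.34, 3.72 and 3.57 CPM in the TranspExer samples. *Ms4a2* (ENSMUSG00000024680, chr19:11615523-11623719), the beta chain, had 3.8, 3.03 and 3.25 CPM in the TranspCtrl samples and 7.47, 5.98 and 6.9 CPM in the TranspExer samples. For both chains the lowest TranspExer sample was above the highest TranspCtrl sample, by 1.62 and 1.57 times. The log2 fold changes were 0.89 ± 0.17 (SE) and 1.01 ± 0.16 (SE), and *Ms4a2* fell short of the fold threshold without TranspCtrl replicate 2 or 3 or without TranspExer replicate 1 or 3, with 0.93 as the lowest value.

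*Hdc* (ENSMUSG00000027360, chr2:126593667-126619299), the decarboxylase that makes histamine from histidine, had 15.4, 13.9 and 14.2 CPM in the TranspCtrl samples and 19.2, 21.3 and 21.3 CPM in the TranspExer samples. The groups did not overlap, and the log2 fold change was 0.51 ± 0.10 (SE).

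**Figure D2:**
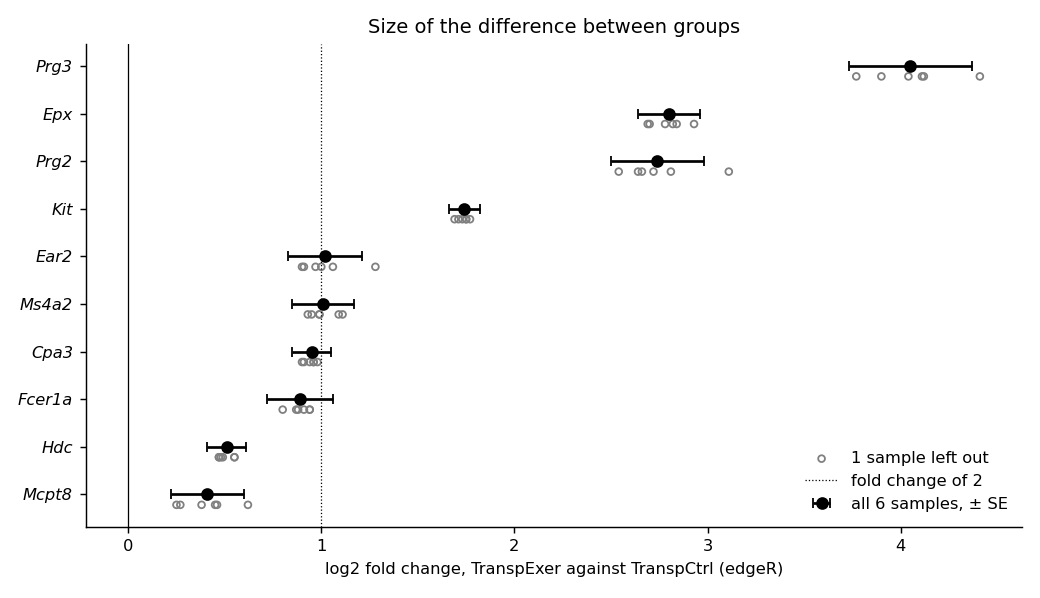
Log2 fold change of each gene between TranspExer and TranspCtrl (filled points, ± standard error from edgeR) and the value with each of the 6 samples left out in turn (open points). *Prg3*, *Epx*, *Prg2* and *Kit* lie beyond the dotted line of a fold change of 2 in every case, *Ear2* and *Ms4a2* lie on both sides of it, and all values are above 0.

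Per gene length, the order of the 10 genes differed between the groups. In TranspCtrl the highest mean was that of *Mcpt8*, with 33.7 ± 8.51 TPM (SD, n = 3), followed by *Ear2* with 28.3 ± 8.11 TPM (SD, n = 3) and *Prg2* with 19.4 ± 7.75 TPM (SD, n = 3). The sample ranges of these 3 genes overlapped from each to the next, and that of *Prg2* also overlapped that of *Cpa3*. Below them came *Hdc*, then *Ms4a2* and *Kit*, which overlapped, then *Fcer1a* and *Epx*, and *Prg3* was last with 0.571 ± 0.245 TPM (SD, n = 3). In TranspExer *Prg2* was first, with 127 ± 13.4 TPM (SD, n = 3), and its lowest sample was above the highest sample of *Ear2*, at 56.2 ± 3.43 TPM (SD, n = 3). *Mcpt8* came next, with 43.8 ± 5.75 TPM (SD, n = 3), and *Cpa3*, *Kit* and *Hdc* followed without overlap. The last 4 genes, *Ms4a2*, *Epx*, *Prg3* and *Fcer1a*, overlapped from each to the next. Of the summed TPM of the 10 genes, *Prg2* made up 12.2% to 17.7% in the TranspCtrl samples and 35.1% to 40.8% in the TranspExer samples, and *Mcpt8* made up 23.6% to 27.3% and 11.6% to 14.8%. The 4 eosinophil granule genes summed to 39.5 to 68.4 TPM in TranspCtrl and 196 to 217 TPM in TranspExer, whereas *Cpa3* and *Mcpt8* summed to 41.5 to 58.5 TPM and 68 to 78 TPM.

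**Figure D3:**
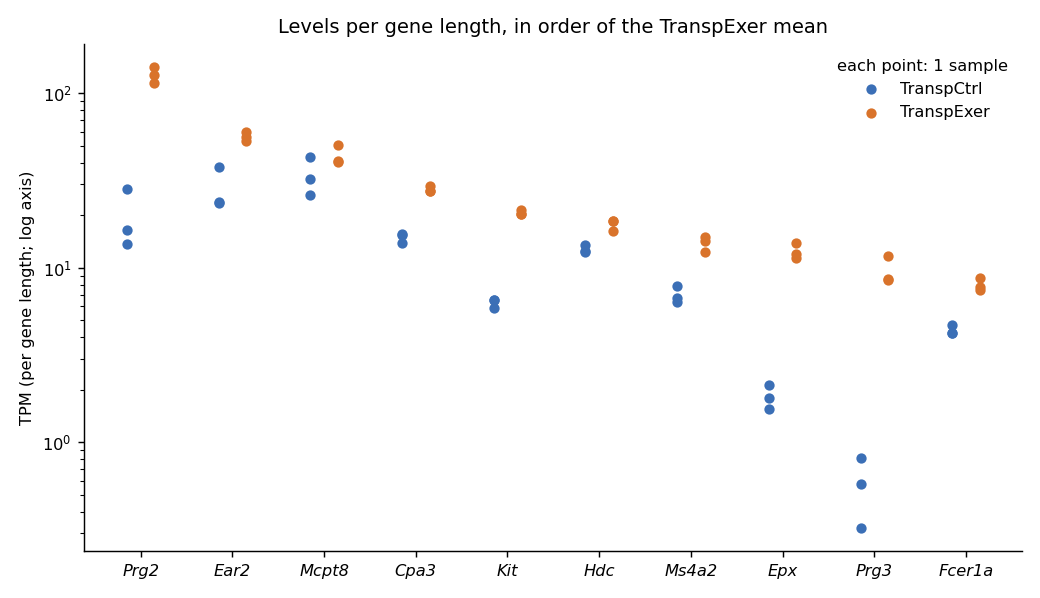
TPM of each gene in each sample on a log axis, ordered by the TranspExer mean. *Prg2* is highest in TranspExer, at 114 to 141 TPM, and below *Mcpt8* and *Ear2* in TranspCtrl, while *Prg3* and *Epx* are the lowest genes of TranspCtrl.

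Other genes known for eosinophils were more often higher than lower in TranspExer. The lists below were, like the 10 genes, chosen with earlier results of these data known, so their counts and adjusted p-values are no independent support. Of 18 eosinophil genes, 14 were tested and 11 were higher on average. At the adjusted p-value alone, 9 were higher and 1, *Il5ra*, was lower, where 16.6% and 15.5% of all tested genes passed. Their median log2 fold change was 0.54, and 3 were upregulated and 1 downregulated, beside 3.5% and 5.28% of all tested genes. *Ear1* and *Ear6*, close relatives of *Ear2*, had log2 fold changes of 2.50 ± 0.22 (SE, edgeR adjusted p = 0.000211) and 2.58 ± 0.21 (SE, edgeR adjusted p = 0.000152). *Ccr3*, the eotaxin receptor that guides eosinophils into tissue, rose from 15.7 to 34.9 CPM on average, a log2 fold change of 1.15 ± 0.10 (SE, edgeR adjusted p = 0.000151). *Il5ra*, the receptor chain through which IL5 drives eosinophil growth, went the other way. It had 283, 242 and 315 counts in the TranspCtrl samples and 63, 63 and 69 counts in the TranspExer samples, a log2 fold change of -1.98 ± 0.13 (SE, edgeR adjusted p = 6.19e-05). Mouse B-lineage cells can also carry this chain, and 5 of 5 B and plasma cell markers were downregulated DEGs, with a summed level of 1380 to 1750 CPM in TranspCtrl and 326 to 359 CPM in TranspExer. Their part in the *Il5ra* result was not tested. *Siglecf*, a surface lectin of eosinophils, had a log2 fold change of 0.76 ± 0.16 (SE, edgeR adjusted p = 0.0109), under the fold threshold.

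Of 26 genes known for mast cells and basophils, 15 were tested and 10 were higher on average. At the adjusted p-value alone, 9 were higher and 3 lower. Their median log2 fold change was 0.51, and 4 (*Prss34*, *Slc18a2*, *Itga2b* and *Gata2*) were upregulated and 2 downregulated, where the shares over all tested genes were again 3.5% and 5.28%. *Prss34*, a serine protease made by basophils, rose from 20.4 to 46.8 CPM, a log2 fold change of 1.20 ± 0.15 (SE, edgeR adjusted p = 0.00105). *Slc18a2*, the transporter that loads histamine and other amines into granules, had a log2 fold change of 1.09 ± 0.19 (SE, edgeR adjusted p = 0.00481), which fell to 0.89, under the fold threshold, without TranspCtrl replicate 1. *Itga2b*, an integrin chain of platelets that basophils and mast cell progenitors also carry, had one of 1.52 ± 0.11 (SE, edgeR adjusted p = 8.85e-05). *Cma1*, a mast cell chymase, fell from 55, 46 and 46 counts in TranspCtrl to 14, 21 and 17 counts in TranspExer, a log2 fold change of -1.36 ± 0.26 (SE, edgeR adjusted p = 0.00647). *Tpsb2*, a mast cell tryptase, had 17, 7 and 15 counts against 2, 3 and 3 and was below the filter on low counts. Further mast cell proteases of the list were also lower on average, with few counts. *Mcpt1* had 18, 11 and 13 counts against 5, 8 and 10, a log2 fold change of -0.74 ± 0.38 (SE, edgeR adjusted p = 0.169). *Mcpt2* had 17, 9 and 9 against 10, 2 and 3, and *Mcpt4* had 16, 5 and 11 against 6, 2 and 4, both below the filter. The tryptase *Tpsab1* and the mast cell receptor *Mrgprb2* had at most 1 count in any sample. *Enpp3*, an ectoenzyme of basophils and mast cells, fell with a log2 fold change of -1.26 ± 0.18 (SE, edgeR adjusted p = 0.00183). *Cd200r3*, a basophil and mast cell receptor, had one of 0.30 ± 0.24 (SE, edgeR adjusted p = 0.367), and *Il1rl1*, the IL33 receptor, had one of -0.61 ± 0.12 (SE, edgeR adjusted p = 0.0077), both from edgeR and under the fold threshold.

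Signalling genes downstream of the IgE receptor differed by small amounts in mostly the same direction. Of 15 such genes, all tested, 14 were higher on average in TranspExer, the median log2 fold change was 0.39, and neither edgeR nor DESeq2 called a DEG. At an unadjusted p-value of 0.05, 11 passed in edgeR, beside 44.4% of all tested genes. At the adjusted p-value threshold alone, 10 were higher and none was lower, where 16.6% and 15.5% of all tested genes passed in these directions. *Fcer1g*, the gamma chain, had a log2 fold change of 0.70 ± 0.11 (SE, edgeR adjusted p = 0.00265). It serves many receptors of myeloid cells, and it had 315 CPM in TranspCtrl on average, against 2.08 CPM for *Fcer1a* and 3.36 CPM for *Ms4a2*, on a scale not corrected for length.

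Several growth factor and cytokine genes that act on these cells had few counts. Of 22 ligands and receptors, 14 were tested. Their median log2 fold change was -0.25, and 1 was upregulated and 3 were downregulated (3.5% and 5.28% over all tested genes). *Il5* had at most 3 counts in any sample. *Il3*, which drives basophil and mast cell growth, had 7, 1 and 8 counts in TranspCtrl and none in TranspExer, which allows up to 0.149 to 0.174 CPM per TranspExer sample. *Csf2* (GM-CSF) had 16, 13 and 14 counts in TranspCtrl against 1, 4 and 0 in TranspExer, a log2 fold change of -2.89 ± 0.67 (SE, edgeR adjusted p = 0.0145), and it did not pass without TranspExer replicate 1, at -2.63 with an adjusted p of 0.0671. With so few counts, its value ranged from -2.30 without TranspExer replicate 3 to -4.48 without TranspExer replicate 2. *Ccl24*, the eotaxin gene among the tested genes, had 86, 46 and 35 counts against 16, 13 and 7, a log2 fold change of -2.08 ± 0.45 (SE, edgeR adjusted p = 0.0113), and it did not pass without TranspExer replicate 3, at -1.78 with an adjusted p of 0.0526. *Il5ra* and *Ccr3* were the other DEGs of this list.

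Transcription factors of the granulocyte, mast cell and megakaryocyte lineages were higher more often than lower. Of 18 genes, all tested, 16 were higher on average, where 48.4% of all tested genes were. The median log2 fold change was 0.69, and 6 were upregulated and 0 downregulated, against 3.5% and 5.28% of all tested genes. *Gata1* and *Gata2*, which direct eosinophil, basophil and mast cell fates, had log2 fold changes of 1.18 ± 0.16 (SE, edgeR adjusted p = 0.00143) and 1.42 ± 0.17 (SE, edgeR adjusted p = 0.000866). *Gata2* had 68, 98 and 112 counts in TranspCtrl against 228, 208 and 250 in TranspExer. *Myb*, *Gfi1b*, *Gfi1* and *Tal1* rose with log2 fold changes of 1.66, 1.69, 1.10 and 1.16 and adjusted p-values of 5.25e-05, 0.000931, 0.000488 and 0.00262 from edgeR. *Tal1* did not pass without TranspCtrl replicate 1, at 0.96. *Cebpe*, which late granule genes of eosinophils and neutrophils require, had one of 0.66 ± 0.11 (SE, edgeR adjusted p = 0.00373), and *Xbp1* had one of -0.88 ± 0.08 (SE, edgeR adjusted p = 0.000309), both under the fold threshold.

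Of 7 other genes for histamine handling, 4 were tested. *Slc18a2* and *Slc22a3*, a transporter that carries histamine into cells, were upregulated DEGs, and without TranspCtrl replicate 1 the list held 1. Of all tested genes, 3.5% were upregulated and 5.28% downregulated. *Slc22a3* had 9, 4 and 10 counts in TranspCtrl against 30, 20 and 21 in TranspExer, a log2 fold change of 1.74 ± 0.37 (SE, edgeR adjusted p = 0.0101). The degrading enzyme *Hnmt* had a log2 fold change of 0.28 ± 0.15 (SE, edgeR adjusted p = 0.183).

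**Figure D4:**
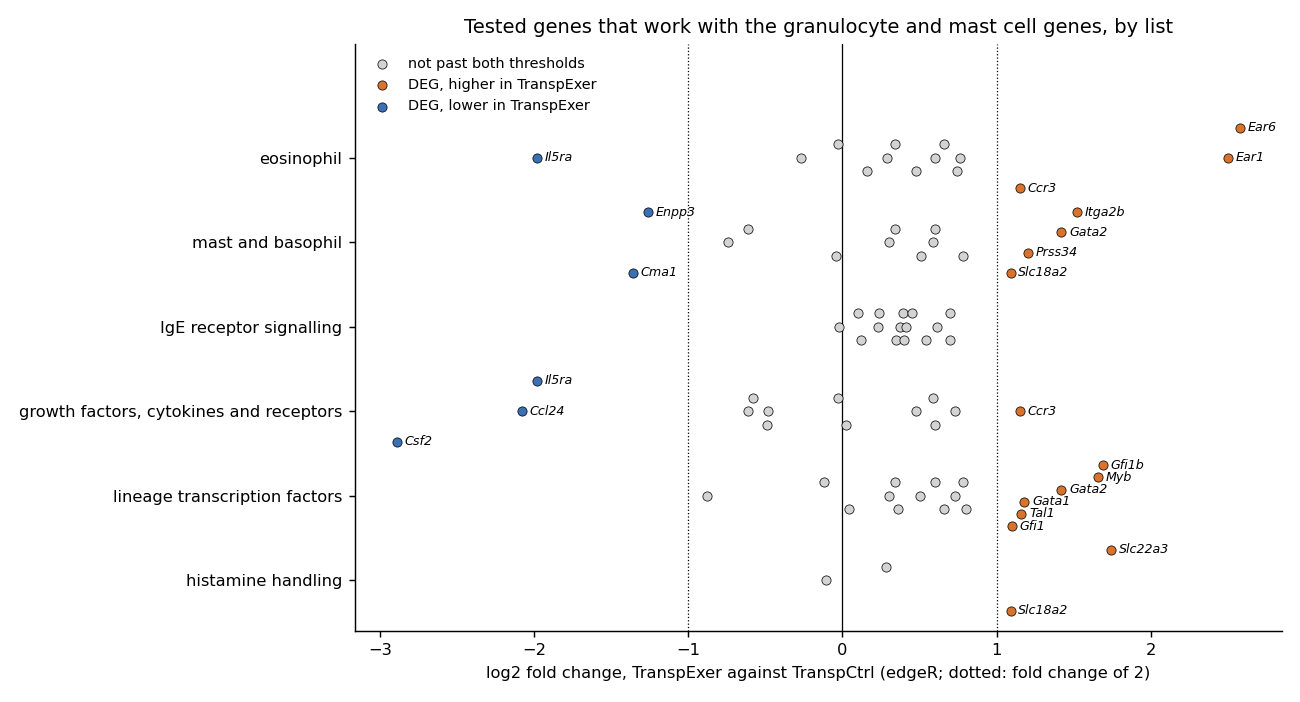
Log2 fold change between TranspExer and TranspCtrl of the tested genes in 6 lists; points are genes, coloured where they passed the adjusted p-value of 0.05 and the fold change of 2 (dotted lines), and spread vertically for legibility only. *Ear1*, *Ear6* and *Ccr3* lie right of the line and *Il5ra* left of it, and the 15 IgE receptor signalling genes all lie between the lines.

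Markers of other marrow cells differed between the groups in either direction or showed little difference, depending on the cell type. The counts of DEGs below stand beside 3.5% of all tested genes upregulated and 5.28% downregulated. Of 5 primary granule genes of neutrophil precursors, 5 were upregulated DEGs, with a summed level of 347 to 494 CPM in TranspCtrl and 1980 to 2100 CPM in TranspExer. *Mpo*, the neutrophil counterpart of *Epx*, had a log2 fold change of 2.47 ± 0.19 (SE, edgeR adjusted p = 0.000123). The TPM ratio of *Prg2* to *Mpo* was 0.246, 0.0727 and 0.0851 in the TranspCtrl samples and 0.151, 0.161 and 0.118 in the TranspExer samples. The groups overlapped through TranspCtrl replicate 1 alone, and the other TranspCtrl samples were below every TranspExer sample. Genes of mature neutrophils held no DEG among 9, with a summed level of 3150 to 4340 CPM and 4150 to 4490 CPM. Of 7 progenitor markers 3 were upregulated DEGs, of 6 megakaryocyte markers 4 and of 6 endothelial markers 5, with summed levels of 107 to 121 against 158 to 169 CPM, 253 to 314 against 457 to 491 CPM, and 178 to 222 against 600 to 656 CPM. Of the 7 erythroid markers only *Epor* was tested, an upregulated DEG, and the list summed to at most 5.23 CPM in any sample. *Car1*, also erythroid, had no counts. Of 5 T and NK cell markers 1 was an upregulated and 1 a downregulated DEG, with a summed level of 11 to 15.7 against 23.8 to 25.6 CPM. *Cd3e*, *Klrb1c* and *Gzma* were no DEGs, with log2 fold changes of -0.09, 0.16 and 0.26. The upregulated DEG, *Nkg7*, made up most of the TranspExer sum. It had 6.53, 7.33 and 8.45 CPM in TranspCtrl and 19.5, 17.9 and 19.9 CPM in TranspExer. The downregulated one, *Cd3d*, had a log2 fold change of -1.83 and did not pass without TranspExer replicate 1, at -1.40, or TranspExer replicate 2, at -1.83. Of the macrophage markers 1 of 8, *Lyz2*, and of the stromal markers 3 of 10 were downregulated DEGs. *Lyz2* did not pass without TranspCtrl replicate 1 or TranspExer replicate 3, and each of the 3 stromal markers fell short of the fold threshold on leaving out at least 1 sample, with log2 fold changes of -0.97 to -1.09 for *Pdgfra*, -0.99 to -1.21 for *Nt5e* and -0.93 to -1.16 for *Ly6a* over all alternatives. At the adjusted p-value alone, 7 of the 10 stromal markers were lower and 2 higher. Of the 8 macrophage markers, 2 were lower and 1, *Cd68*, was higher, with a log2 fold change of 0.78. Of all tested genes, 15.5% were lower and 16.6% higher at this threshold. The part of these cell types in the values of the 10 genes was not tested.

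Among the 9669 tested genes with a mean of at least 10 CPM that are not in the set, the profile nearest to that of *Prg2* was that of *Angpt2*, at a Euclidean distance of 1.07 in centred log2 CPM over the 6 samples. *Vwa1*, *Il7r*, *Ctsg* and *Cd36* followed at 1.17 to 1.27, so *Ctsg* was the primary granule gene among these 5. *Epx*, which is in the set, was closer to *Prg2* than these were, at 0.696. For *Kit*, the nearest profiles were those of *Plin2*, *Lpl*, *Slc40a1*, *Gdf3* and *Adamts7*, at distances of 0.189 to 0.249. Within the set, *Cpa3* and *Fcer1a* were the closest pair, at 0.264, and *Mcpt8* and *Prg3* the farthest, at 4.16. These distances follow mainly from how far each gene differed between the groups, and the 6 samples fall into 2 separate groups, so no correlation is given.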

How the data were processed

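RNA-Seq of 3 TranspCtrl and 3 TranspExer samples of BM MSCs was used, with groups taken from the sample labels. The authors deposited estimated counts (expected counts, not normalized) and a gene length for each gene. The labels give the build mm10. The aligner, counting tool and annotation were not given in the sources used here, and the labels and the paper name different library kits. Positions came from GENCODE M21 (GRCm38), which held 52125 of 56980 identifiers.

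Counts were rounded and tested in R 4.3.3 with edgeR 4.0.16 (filterByExpr, TMM, quasi-likelihood test of a model with the group alone). P-values of all 15190 genes were adjusted by Benjamini-Hochberg, and DEGs passed 0.05 with at least a 2-fold change. Each SE is the absolute log2 fold change divided by the square root of F. TPM was computed from unrounded counts and deposited lengths. Log2 CPM for profiles had a prior count of 2. Total counts were 17647682 to 21319228 per sample.

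The 10 genes, the lists and the rules for named genes were chosen with earlier results of these data known. Named genes were the 10, up to 6 DEGs per list by smallest adjusted p-value, 16 genes fixed by name, of which those with little expression are given by counts, and the 5 nearest profiles to *Prg2* and *Kit*. *Mpo*, *Lyz2*, *Cd3d*, *Pdgfra*, *Nt5e*, *Ly6a*, *Epor*, *Car1*, *Col1a1*, *Cebpe*, *Xbp1*, *Hnmt*, *Tpsab1*, *Mrgprb2*, *Ear10* and *Ear14* were named after their values were seen. So were *Col1a2*, *Cxcl12*, *Cd68*, *Mcpt1*, *Mcpt2*, *Mcpt4*, *Nkg7*, *Cd3e*, *Klrb1c* and *Gzma*. The alternatives were DESeq2 1.42.0, 2 other scalings, 2 other filters, a replicate block, each sample left out, and summed counts of related genes. The script was tested on simulated data.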

Additional observations from a re-analysis of the deposited data

How the results depend on the processing

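The fold changes of the 10 genes were above 0 in all 123 values computed under the alternatives. Of these, 7 differed from the reported value by more than the larger group SD. By upper-quartile normalization and by scaling to library size only, *Kit* had log2 fold changes of 1.66 and 1.65 and *Cpa3* of 0.87 and 0.86, and *Hdc* had 0.42 by library size only, where the median of all genes was -0.105. The other 2 were the summed counts of the *Ear* genes and of *Prg2* with *Prg3*, 1.43 and 2.81. The 10 genes held 4 upregulated DEGs in place of 6 under either scaling, since *Ear2* and *Ms4a2* fell below a fold change of 2. They held between 4 and 6 with single samples left out. Upregulated DEGs among all genes ranged from 443 to 579 and downregulated DEGs from 671 to 852 with single samples left out, and DESeq2 gave 522 and 777. Library size only gave 445 and 941, upper-quartile normalization 454 and 925, no filter on low counts 603 and 946, and the stricter filter 547 and 815. The histamine list held 1 to 2 upregulated DEGs with single samples left out, 1 without TranspCtrl replicate 1. For the IgE receptor signalling list, DESeq2 also called no gene past both thresholds. With the replicate number as a block, 519 genes were upregulated and 767 downregulated and the 10 genes held 6 DEGs. Deviations of same-numbered samples correlated by 0.0247, -0.00167 and 0.0416, and 1 of 3 numbers was its own best partner, so the numbers were not taken as pairs. Depth limited *Prg3* in TranspCtrl and the cytokine and tryptase genes, which had few counts.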
